A study of Mus musculus with 6 samples.

Results

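Tudor domain proteins of germ granules were followed here through the transcripts of 10 genes, *Tdrd1*, *Tdrd3*, *Tdrd5*, *Tdrd6*, *Tdrd7*, *Tdrd9*, *Tdrd12*, *Tdrkh*, *Rnf17* and *Stk31*. They were chosen by name, as Tudor domain proteins of germ granules and of the piRNA pathway, and all 10 were found among the 54232 genes of the count table. The data were bulk RNA-seq libraries of whole testes from B6D2F1 mice at postnatal day 12. The labels give 3 libraries the genotype *Dis3l2* WT (the control) and the other 3 the genotype *Dis3l2* KO (KO-labelled in what follows). The study describes the KO animals as *Stra8-Cre*; *Dis3l2* F/- mice (*Dis3l2* cKO) and the controls as their littermates. *Stra8-Cre* acts in premeiotic germ cells, so somatic cells of an F/- testis keep the floxed copy beside the deleted one. In the study's account CRE acts in part of the spermatogonia and reaches all spermatocytes by the preleptotene stage.

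A Tudor domain is a small fold, which in many germ granule proteins binds methylated arginines. In the male germ line, PIWI proteins carry symmetrically dimethylated arginines near their N terminus, and Tudor domain proteins dock there and gather the piRNA machinery into germ granules: the intermitochondrial cement of spermatogonia and spermatocytes and the chromatoid body of later spermatocytes and round spermatids. PIWI-bound piRNAs silence transposons, and mouse mutants of many of these genes are male-sterile.

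Library totals ran from 33325483 to 41945867 counts in the control and from 37533318 to 44956193 in the KO-labelled group. The library labels were checked on the targeted gene. *Dis3l2* stood at 25.8, 23.5 and 23.0 CPM (counts divided by the TMM-scaled library size) in the control. In the KO-labelled group it stood at 31.6, 25.4 and 27.5 CPM. It was not called (log2 fold change 0.22, adjusted p = 0.136 by edgeR's quasi-likelihood test), whereas *Dis3*, which encodes the exosome-associated ribonuclease of the same family, fell from 139 ± 7.93 to 63.8 ± 4.55 CPM (SD, n = 3 each; log2 fold change -1.13, adjusted p = 2.71e-07). The series title and labels name *Dis3l2*, and the design sentence of the series names *Dis3*. The change of *Dis3* lay near that of the germ cell gene *Ddx4* (-1.30) and above the median of 7 general germ cell genes (-1.66), all of which were lower. It lay below the median of all tested genes (-0.02). The cause of the fall of *Dis3* was not tested. The study reports that cKO testes of the same age had less *Dis3l2* mRNA by RT-qPCR and less protein by immunoblot. By in situ hybridization it reports no *Dis3l2* in premeiotic germ cells and spermatocytes. Those checks were not analysed here, and the counts of these libraries showed no such fall of *Dis3l2*. The reason for the difference was not tested. Whole-gene counts do not show whether a transcript lacks a deleted exon. The group is therefore named by its label.

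Of the 10 Tudor domain genes, 6 were lower in the KO-labelled testes and 0 were higher at an adjusted p under 0.05 on the TMM scale, whereas 0 were lower and 7 higher when libraries were scaled to germ cell genes, a scale on which 78.4% of all tested genes were higher and 0.979% lower. The 6 were *Tdrd12*, *Tdrkh*, *Stk31*, *Rnf17*, *Tdrd9* and *Tdrd7*, from 2.58-fold lower for *Tdrd12* to 1.27-fold lower for *Tdrd7*. *Tdrd1*, *Tdrd3*, *Tdrd5* and *Tdrd6* did not pass the test. The counts of 6 lower and 0 higher were the same by edgeR's quasi-likelihood test at an unadjusted p under 0.05, by DESeq2 and by limma-voom. All 10 passed the filter on low counts and were tested among 20327 genes, of which 32.7% were called in either direction, 16.5% lower and 16.2% higher. The 3 control values lay above the 3 KO-labelled values for the same 6 members, and 23.8% of all tested genes were separated in that direction and 21.7% in the other. The median log2 fold change was -0.44 over the members and -0.02 over all tested genes. In whole testes, fewer cells of a type and less RNA per cell cannot be told apart.

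**Figure D1:**
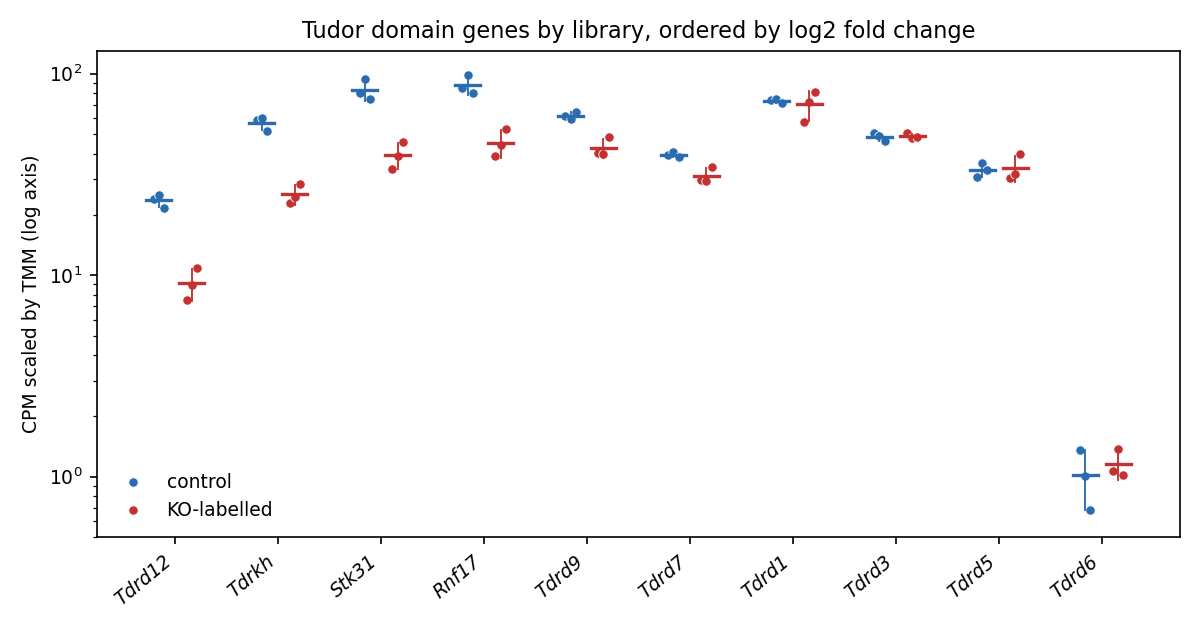
CPM of each Tudor domain gene in each library, on a log axis, with control libraries in blue and KO-labelled libraries in red; horizontal bars are means and vertical bars are SD (n = 3). From *Tdrd12* to *Tdrd7* the groups are apart, and for *Tdrd1*, *Tdrd3*, *Tdrd5* and *Tdrd6* they overlap.

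Among the members that act in piRNA biogenesis, *Tdrd12* changed the most on the TMM scale and the least when libraries were scaled to germ cell genes (-0.03). It encodes a Tudor protein with a helicase domain that is needed for secondary piRNA production, and lies on chromosome 7 (chr7:35469098-35537745 in GRCm38, minus strand, 4338 exonic bases). Its level was 23.8, 25.0 and 21.6 CPM in the control and 7.51, 8.92 and 10.9 CPM in the KO-labelled testes. The lowest control value was 1.99 times the highest KO-labelled value, the widest gap of any member. The log2 fold change was -1.37 (SE 0.143, 95% interval -1.67 to -1.06, adjusted p = 7.27e-06, edgeR), and 4.90% of tested genes had a lower one.

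*Tdrkh* (chr3:94413273-94434668, plus strand) encodes a Tudor and KH domain protein that is anchored to mitochondria, binds PIWI proteins and takes part in trimming piRNA 3′ ends. It was measured at 58.7, 60.0 and 52.0 CPM in the control and at 22.8, 24.4 and 28.4 CPM in the KO-labelled testes. Each KO-labelled library was below every control library, with a log2 fold change of -1.17 (SE 0.105, 95% interval -1.40 to -0.95, adjusted p = 1.72e-06, edgeR). Of its 6142 exonic bases, 2255 lie opposite exons of *Oaz3* on the other strand, and reads were counted by strand.

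*Tdrd9* (chr12:111971559-112068854, plus strand) encodes a helicase with a Tudor domain that works with the PIWI protein PIWIL4 in transposon silencing. Control libraries held 61.5, 59.3 and 64.5 CPM and KO-labelled libraries 40.5, 39.9 and 48.3 CPM. The groups did not overlap, and the fall was smaller than that of *Tdrd12* or *Tdrkh* (log2 fold change -0.53, SE 0.0951, 95% interval -0.73 to -0.32, adjusted p = 6.59e-04, edgeR). The 95% intervals of *Tdrd9* and *Tdrkh* shared no value.

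*Tdrd1* (chr19:56826209-56870012, plus strand) encodes a multi-Tudor scaffold of the intermitochondrial cement that binds the PIWI protein PIWIL2. Its control values of 73.7, 74.9 and 71.3 CPM were close together, with an SD of 1.85, and its KO-labelled values of 57.6, 72.5 and 81.3 CPM were spread on both sides of them, with an SD of 12.0. The groups overlapped, and the log2 fold change was -0.06 (SE 0.108, 95% interval -0.29 to 0.17, adjusted p = 0.729, edgeR). This interval shared no value with that of *Tdrkh*.

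*Tdrd5*, *Tdrd6* and *Tdrd7* encode proteins of the chromatoid body. *Tdrd7* (chr4:45965334-46034761, plus strand), which takes part in remodelling of the chromatoid body, was lower at 29.7, 29.5 and 34.3 CPM in the KO-labelled libraries than at 39.4, 40.9 and 38.5 CPM in the control. The separation was narrow, the lowest control value being 1.12 times the highest KO-labelled one. Its log2 fold change was -0.35 (SE 0.0963, 95% interval -0.55 to -0.14, adjusted p = 0.0123, edgeR). It was the only member whose call was lost when a library was left out: the value was -0.28 (adjusted p = 0.0716) without the second control library and -0.30 (adjusted p = 0.0711) without the second KO-labelled library.

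*Tdrd5* (chr1:156255296-156303664, minus strand), needed for chromatoid body assembly and for transposon silencing, was measured at 30.8, 36.2 and 33.1 CPM in the control and at 30.3, 31.8 and 39.95 CPM in the KO-labelled libraries. The third KO-labelled library was the highest of all 6, and the groups overlapped (log2 fold change 0.03, 95% interval -0.22 to 0.27, adjusted p = 0.88, edgeR). Of its 6937 exonic bases, 176 lie opposite a gene on the other strand.

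*Tdrd6* (chr17:43615335-43630299, minus strand), a chromatoid body protein of later spermatocytes and spermatids, had the fewest counts of the 10. It had 47, 43 and 30 counts in the control and 39, 59 and 39 counts in the KO-labelled libraries, which came to 0.682 to 1.35 CPM and 1.02 to 1.38 CPM. The groups overlapped, and the log2 fold change of 0.20 (SE 0.373, 95% interval -0.60 to 0.996, adjusted p = 0.728, edgeR) had an interval wide enough to hold the change of *Tdrd9*. It was not called on this scale, and scaled to germ cell genes it was called higher from the same counts (log2 fold change 1.56, adjusted p = 6.64e-04, edgeR). Markers of the stages in which *Tdrd6* acts were also scarce. Of 12 genes of late spermatocytes and spermatids, 6 passed the filter on low counts, and *Tnp2* had no count in any library. On the TMM scale 0 of the 6 were called (1 at an unadjusted p under 0.05 by edgeR, 0 by DESeq2 or limma-voom), against 32.7% of all tested genes. Scaled to germ cell genes 3 were higher and 0 lower, against 78.4% and 0.979% of all tested genes. Scaled to somatic cell markers 3 were lower and 0 higher, against 43.7% lower among all tested genes. The summed level of the 12 genes was 5.62 to 8.27 CPM in the control and 4.87 to 7.40 CPM in the KO-labelled testes.

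*Rnf17* and *Stk31* combine Tudor domains with other domains. *Rnf17* (chr14:56402581-56525032, plus strand) encodes a protein with a RING finger and Tudor domains that is needed for spermatid development. It stood at 85.0, 98.8 and 80.3 CPM in the control and at 38.9, 44.0 and 53.1 CPM in the KO-labelled libraries. All KO-labelled values were below all control values, with a log2 fold change of -0.96 (SE 0.114, 95% interval -1.20 to -0.71, adjusted p = 2.21e-05, edgeR).

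*Stk31* (chr6:49395604-49469501, plus strand), also known as *Tdrd8*, encodes a Tudor protein with a kinase-like domain. Its level was 80.6, 93.6 and 75.0 CPM in the control and 33.7, 39.2 and 45.7 CPM in the KO-labelled testes. The order of libraries within each group was the same as for *Rnf17*, and the log2 fold change was of like size at -1.07 (SE 0.115, 95% interval -1.32 to -0.83, adjusted p = 9.23e-06, edgeR).

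*Tdrd3* (chr14:87416639-87545504, plus strand) is expressed in many tissues, where its protein binds methylarginine marks of histones and pairs with topoisomerase TOP3B. It was the most even member, with 50.6, 48.9 and 46.3 CPM in the control and 50.6, 47.9 and 48.3 CPM in the KO-labelled testes. The log2 fold change of 0.01 had a 95% interval of -0.17 to 0.19 (SE 0.0849, adjusted p = 0.949, edgeR), the narrowest of the 10.

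**Figure D2:**
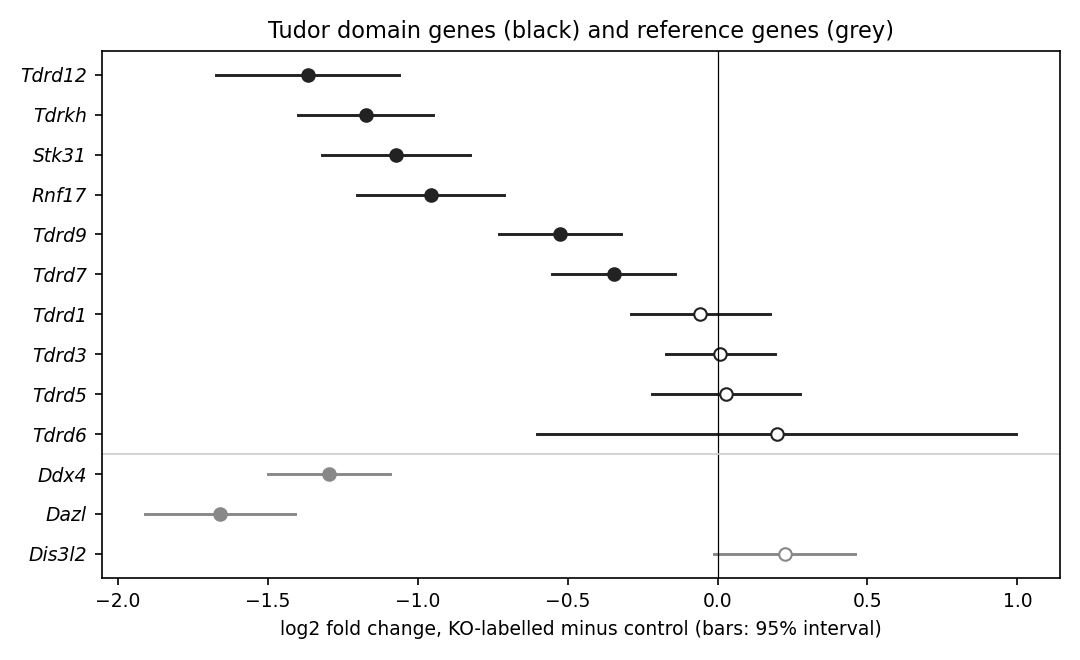
Log2 fold change of each Tudor domain gene (black) and of *Ddx4*, *Dazl* and *Dis3l2* (grey), KO-labelled minus control, from edgeR with 3 libraries per group; bars are 95% intervals and filled points have an adjusted p under 0.05. The members run from -1.37 for *Tdrd12* to 0.20 for *Tdrd6*, and *Ddx4* at -1.30 lies near *Tdrd12*.

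Levels can be compared between genes only per length, so CPM per kilobase of exon was used for the order of the members. In the control, *Stk31* was the highest at 25.7 CPM per kilobase, followed by *Rnf17* at 14.1, *Tdrd1* at 13.5, *Tdrd9* at 11.4, *Tdrd7* at 10.01, *Tdrkh* at 9.26, *Tdrd3* at 8.01, *Tdrd12* at 5.41, *Tdrd5* at 4.81 and *Tdrd6* at 0.144. The neighbours *Rnf17* and *Tdrd1*, *Tdrd7* and *Tdrkh*, and *Tdrd12* and *Tdrd5* overlapped in their 3 control values, and the other neighbours in that order did not. In the KO-labelled testes *Tdrd1* was first at 12.9 CPM per kilobase and *Stk31* second at 12.2, with overlapping values of 10.6 to 14.9 and 10.4 to 14.1. *Rnf17* moved from rank 2 to rank 6, at 7.27 CPM per kilobase, and *Tdrd3* from rank 7 to rank 3, at 8.06, but the KO-labelled values of the genes at ranks 3 to 6 (*Tdrd3*, *Tdrd9*, *Tdrd7* and *Rnf17*) overlapped, so their order was not resolved. *Tdrd6* was last in both groups.

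Which library of a group was highest or lowest was often the same from member to member, which is given as a description with no test. The second control library held the highest control value for 7 of the 10 members, against 34.8% of all tested genes, and the third the lowest for 8, against 34.9%. Among the KO-labelled libraries, the third held the highest value for 8 members, against 34.9% of all tested genes, and the first the lowest for 6, against 39.8%. The summed level of the 10 genes was 506, 539 and 483 CPM in the control and 313, 340 and 391 CPM in the KO-labelled testes.

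The germ cell gene *Ddx4*, whose product is the VASA helicase of the same granules, had the same order of libraries as *Rnf17* and *Stk31*, with 151, 158 and 129 CPM in the control and 54.1, 59.8 and 64.3 CPM in the KO-labelled testes. It fell by 1.30 on the log2 scale (adjusted p = 2.54e-07, edgeR), and *Dazl*, which encodes a germ cell RNA-binding protein, fell by 1.66 (adjusted p = 1.82e-07, edgeR). Each member was therefore also set against *Ddx4* within each library, as the log2 ratio of their counts.

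The members spread widely against *Ddx4*. *Tdrd12* had ratios of -2.67, -2.65 and -2.57 in the control and of -2.85, -2.74 and -2.57 in the KO-labelled libraries, which overlapped (difference -0.09, exact permutation p = 0.5, two-sided). For the other 9 members every KO-labelled ratio was above every control ratio. *Ddx4* itself had a log2 fold change of -1.30, against a median of -0.02 over all tested genes. The share of all genes separated in this way against *Ddx4* was not computed, so the count is not shown to be particular to the members. The smallest of these differences was that of *Tdrkh*, with -1.36, -1.40 and -1.31 in the control and -1.25, -1.29 and -1.18 in the KO-labelled libraries, a difference of 0.12. *Stk31* differed by 0.22 and *Rnf17* by 0.33.

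The remaining members lay further up. *Tdrd9* differed by 0.76 and *Tdrd7* by 0.94 on this log2 scale, *Tdrd1* by 1.22, *Tdrd3* by 1.30, *Tdrd5* by 1.32 and *Tdrd6* by 1.53. The ratios of *Tdrd1* were -1.03, -1.07 and -0.85 in the control and 0.09, 0.28 and 0.34 in the KO-labelled libraries. Counts here are not divided by gene length, so only the difference between groups can be read, not the sign of a ratio. With 3 libraries against 3 there are 20 arrangements, so the exact p of 0.1 that each of these 9 members reached is the smallest possible, and its Benjamini-Hochberg value over the 10 ratios was 0.111. These ratios take up the fall of *Ddx4* itself. The log2 fold changes of the 7 general germ cell genes, *Ddx4* among them, ran from -2.13 to -0.76 on the TMM scale. The smallest fall, that of *Tex14* (-0.76), was less than those of *Tdrd12* (-1.37), *Tdrkh* (-1.17), *Stk31* (-1.07) and *Rnf17* (-0.96). For these members the sign of the difference between groups in such a ratio therefore depends on the germ cell gene chosen.

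**Figure D3:**
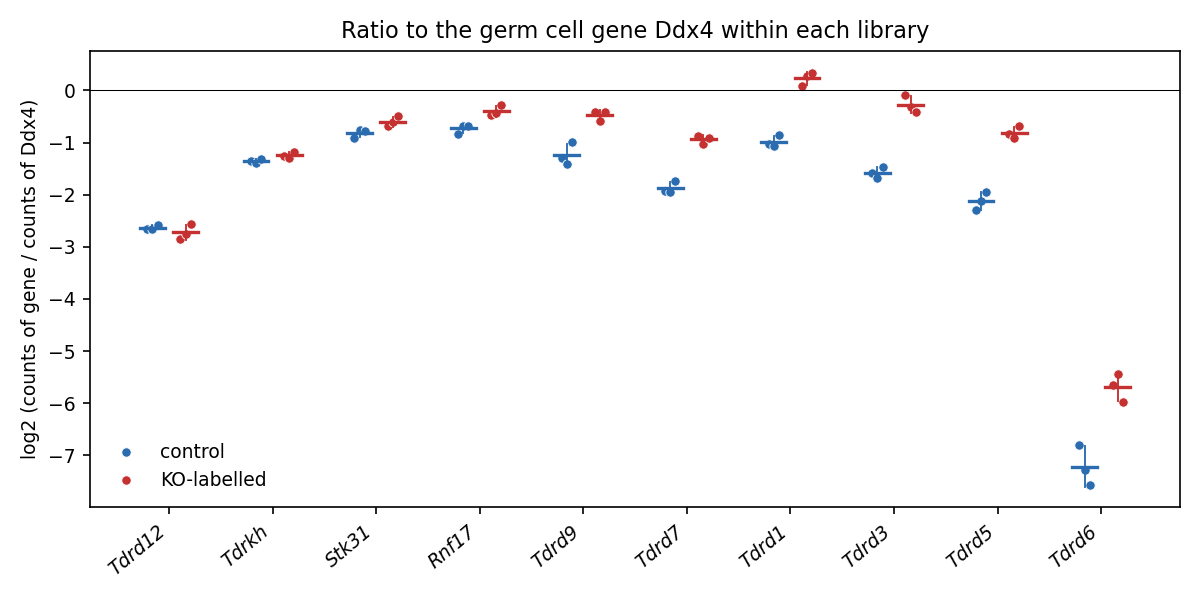
Log2 ratio of each member's counts to those of *Ddx4* in the same library, with control libraries in blue and KO-labelled libraries in red; bars are means and SD (n = 3). *Tdrd12* overlaps between groups, *Tdrkh*, *Stk31* and *Rnf17* differ by 0.12 to 0.33, and the other members by 0.76 or more.

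The same was done against *Tdrd3*, the member expressed in many tissues, a denominator chosen after the values were seen. As *Tdrd3* hardly changed on the TMM scale (log2 fold change 0.01), these ratios restate the TMM changes and are no separate support. *Tdrd12* (difference -1.39), *Tdrkh* (-1.19), *Stk31* (-1.09), *Rnf17* (-0.97), *Tdrd9* (-0.54) and *Tdrd7* (-0.36) lay below it in every KO-labelled library relative to every control library. *Tdrd1* (-0.08), *Tdrd5* (0.01) and *Tdrd6* (0.22) overlapped. The Benjamini-Hochberg value of the 6 separated ratios, each at the smallest exact p of 0.1, was 0.15 over 9 ratios.

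How the libraries were scaled set the direction of several members. On the scale used above, 49.6% of all called genes were higher. When libraries were scaled to somatic cell markers, the median of all genes moved by -0.43, 4.75% of called genes were higher, and 9 of the 10 members were lower, all but *Tdrd6*, against 43.7% of all tested genes. When they were scaled to 4 germ cell genes, *Ddx4* and *Dazl* among them, that median moved by 1.35, 98.8% of called genes were higher, and 7 members were higher and 0 lower, against 78.4% and 0.979% of all tested genes. *Tdrd12* was the lowest and *Tdrd6* the highest member on each of these scales. The 4 germ cell genes themselves had log2 fold changes of -1.66 to -0.76 on the TMM scale.

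Markers of the testis cell types moved as well, with counts given on the TMM scale. Among all tested genes, 16.5% were lower and 16.2% higher on that scale. When scaled to somatic cell markers 43.7% were lower, and when scaled to germ cell genes 78.4% were higher. All 18 genes of early meiotic prophase were lower, with a median log2 fold change of -1.89 and a summed level of 2148 to 2569 CPM in the control and 560 to 736 CPM in the KO-labelled libraries. Of 9 genes of differentiating spermatogonia, 6 were lower and 1 higher, and their sum was 869 to 902 CPM against 478 to 561 CPM. Scaled to germ cell genes, 5 of these were lower and 4 higher, and scaled to somatic cell markers, 8 were lower and 1 higher. Of 12 genes of undifferentiated spermatogonia, 6 were higher and 0 lower (288 to 299 CPM against 321 to 410 CPM). When scaled to somatic cell markers 2 of these were higher and 2 lower, and when scaled to germ cell genes 12 were higher and 0 lower. All 12 Sertoli cell genes were higher, at 6106 to 6460 CPM against 9898 to 10760 CPM. Scaled to somatic cell markers, 6 were called higher and 0 lower. That scale was set from all the somatic lists given here, these Sertoli genes included. Counts of the somatic lists on it therefore describe those lists only relative to each other. Of the other somatic lists, 6 of 8 Leydig cell genes (541 to 621 CPM against 802 to 844 CPM), 5 of 6 macrophage genes (80.5 to 96.9 CPM against 118 to 173 CPM), 2 of 6 endothelial genes (304 to 342 CPM against 395 to 445 CPM) and 3 of 6 stromal genes (4129 to 5345 CPM against 4861 to 7491 CPM) were higher and 0 lower. Scaled to somatic cell markers, 2 Leydig cell genes and 1 macrophage gene were higher, and 1 Leydig cell and 1 endothelial gene lower. Peritubular myoid genes went the other way, with 3 of 6 lower and 0 higher (1226 to 1244 CPM against 1028 to 1068 CPM, median -0.31), 5 lower when scaled to somatic cell markers and 6 higher when scaled to germ cell genes. On both marker scales the genes of early meiotic prophase stayed without a higher call (18 lower when scaled to somatic cell markers, 13 lower when scaled to germ cell genes). The members' median of -0.44 lay between those of the genes of early meiotic prophase (-1.89) and of Sertoli cells (0.74). The median of all tested genes (-0.02) lay between them too. The part of cell composition in the members' values was not tested.

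The other genes of the piRNA pathway were counted from a list of 22, of which 21 were in the table and tested. In this list 15 were lower, 0 higher and 6 not called, with a median of -0.58, against 16.5% lower and 16.2% higher among all genes. Scaled to germ cell genes, *Ddx4* of this list among them, 13 were higher and 1 lower, against 78.4% and 0.979% of all tested genes. At an unadjusted p under 0.05 (edgeR, TMM scale) 15 were lower and 1 higher, and DESeq2 and limma-voom each called 14 lower and 0 higher. The 4 with the smallest adjusted p were *Tex15*, *Ddx4*, *Mov10l1* and *Mael*. *Tex15*, which acts with PIWIL4 in transposon silencing and in meiotic recombination, stood at 644, 749 and 588 CPM in the control and fell to 137, 164 and 155 CPM (log2 fold change -2.12, adjusted p = 6.70e-09, edgeR). *Mov10l1*, the helicase that feeds piRNA precursors to processing, stood at 239, 232 and 232 CPM and at 98.5, 104 and 132 CPM (log2 fold change -1.07, adjusted p = 2.63e-06, edgeR). *Mael*, a granule protein of transposon silencing, stood at 262, 316 and 264 CPM and at 117, 135 and 151 CPM (log2 fold change -1.07, adjusted p = 3.37e-06, edgeR). In each of the 3 the groups were apart.

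**Figure D4:**
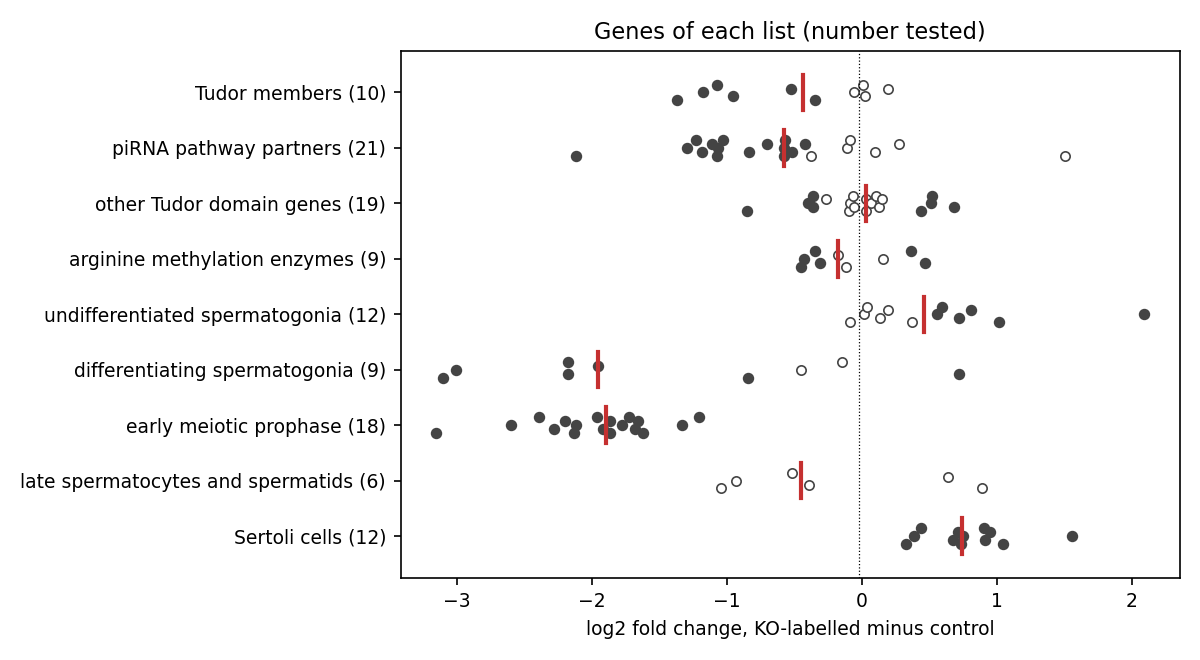
Log2 fold change of each tested gene by list, KO-labelled minus control, from edgeR; filled points have an adjusted p under 0.05, red bars are list medians, the dotted line is the median of all tested genes and the number tested stands after each name. The Tudor members (median -0.44) and piRNA pathway partners (-0.58) hold called genes on the lower side only on the TMM scale plotted here. When scaled to germ cell genes they hold them mostly on the higher side, where 78.4% of all tested genes also lie. The other Tudor domain genes (0.03) hold 4 on each side of the scale plotted here.

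Genes of other Tudor domain proteins, most of them readers of histone methylation, were counted from a list of 20. Of the 19 tested, 4 were lower, 4 higher and 11 not called on the TMM scale, with a median of 0.03. Among all tested genes, 16.5% were lower and 16.2% higher on that scale. When scaled to somatic cell markers 14 were lower, against 43.7% of all tested genes. When scaled to germ cell genes 19 were higher, against 78.4%. The lower ones on the TMM scale were *Uhrf1* (107 ± 3.06 to 59.5 ± 6.39 CPM, SD, n = 3, log2 fold change -0.85, adjusted p = 7.91e-06, edgeR), *Setdb1* (-0.36), *Mtf2* (-0.39) and *Sgf29* (-0.36). UHRF1 maintains DNA methylation through replication, and SETDB1 is a histone H3 lysine methyltransferase. The higher ones were *Arid4a* (159 ± 17.4 to 228 ± 3.98 CPM; log2 fold change 0.52, adjusted p = 3.13e-04, edgeR), *Kdm4b* (0.51), *Kdm4a* (0.44) and *Phf19* (0.68). KDM4A and KDM4B are histone demethylases.

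The tested genes of arginine methylation had log2 fold changes of at most 0.47 in size on the TMM scale. Of 10 genes of arginine methylation, 9 were tested, 4 were lower (*Prmt3* at -0.45, *Wdr77* at -0.43, *Prmt7* at -0.35 and *Prmt9* at -0.31) and 2 higher (*Prmt2* at 0.47 and *Prmt6* at 0.37, all log2 fold changes on the TMM scale). Among all tested genes, 16.5% were lower and 16.2% higher on that scale. Scaled to somatic cell markers 6 were lower, against 43.7% of all tested genes, and scaled to germ cell genes 9 were higher, against 78.4%. WDR77 is the partner of PRMT5, the main enzyme of symmetric dimethylation. *Prmt5* itself was not called, at 142, 146 and 140 CPM in the control and 127, 125 and 128 CPM in the KO-labelled testes (log2 fold change -0.17, adjusted p = 0.0803, edgeR), although its groups were apart.

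The 250 bases before the transcription start were read from the RefSeq promoter table (GRCm38.p6), which held 8 of the 10 members. They are printed for 5 of them: *Tdrd12*, *Tdrkh* and *Stk31*, which fell most among the 8, *Tdrd9*, which fell less, and *Tdrd1*, which was not called. Capitals mark the E-box CACGTG, a palindrome bound by basic helix-loop-helix factors. All are written 5′ to 3′ on the strand of the gene.
Tdrd12, chr7:35537745-35537994, minus strand: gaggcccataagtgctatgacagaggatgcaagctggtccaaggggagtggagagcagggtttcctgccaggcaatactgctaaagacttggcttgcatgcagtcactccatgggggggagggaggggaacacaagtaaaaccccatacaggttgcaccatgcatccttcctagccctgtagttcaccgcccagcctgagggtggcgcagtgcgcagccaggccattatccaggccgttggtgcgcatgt
Tdrkh, chr3:94412994-94413243, plus strand: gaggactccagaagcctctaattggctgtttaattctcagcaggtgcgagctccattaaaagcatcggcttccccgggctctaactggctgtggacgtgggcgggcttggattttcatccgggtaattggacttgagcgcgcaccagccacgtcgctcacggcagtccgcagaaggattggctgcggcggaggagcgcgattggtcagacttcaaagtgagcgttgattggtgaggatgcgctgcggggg
Stk31, chr6:49395354-49395603, plus strand: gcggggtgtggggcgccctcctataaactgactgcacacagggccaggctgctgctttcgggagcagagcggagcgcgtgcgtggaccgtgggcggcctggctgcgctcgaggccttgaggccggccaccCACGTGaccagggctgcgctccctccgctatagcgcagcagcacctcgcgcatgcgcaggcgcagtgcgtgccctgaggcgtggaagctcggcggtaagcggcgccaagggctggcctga
Tdrd9, chr12:111971309-111971558, plus strand: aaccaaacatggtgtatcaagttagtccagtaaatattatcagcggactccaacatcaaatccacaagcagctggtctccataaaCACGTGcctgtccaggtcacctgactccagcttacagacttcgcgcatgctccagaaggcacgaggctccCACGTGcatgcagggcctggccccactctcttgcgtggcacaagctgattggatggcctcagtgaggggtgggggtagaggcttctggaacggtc
Tdrd1, chr19:56825959-56826208, plus strand: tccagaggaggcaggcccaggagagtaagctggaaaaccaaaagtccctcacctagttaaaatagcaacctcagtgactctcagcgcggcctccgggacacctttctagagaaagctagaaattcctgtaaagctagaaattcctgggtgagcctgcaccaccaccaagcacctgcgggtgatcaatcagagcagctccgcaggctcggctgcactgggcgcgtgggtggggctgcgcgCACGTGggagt

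The E-box stood in 3 of the 8 windows, once in *Tdrd1*, at 11 to 6 bases before the start, once in *Stk31*, at 120 to 115, and at 2 places in *Tdrd9*, at 165 to 160 and 95 to 90. Of 32851 promoter windows of the same length, 6.02% held it. The 3 genes did not share a response: *Stk31* fell by 1.07 and *Tdrd9* by 0.53 on the log2 scale, and *Tdrd1* was not called. The MYB core AACNG was in 6 of the 8 windows and in 74.2% of all windows, and the motif CNCCTCAG of the meiotic initiator STRA8 in *Tdrd7* and *Stk31* and in 6.42% of all windows. The cAMP response element TGACGTCA was in 0 of the 8 and in 1.55% of all. Each motif was searched on both strands, and a match is a description of letters only. The windows also differed in CpG content: *Tdrd5* held 40 CpG, *Tdrd3* 32, *Stk31* 26, *Tdrkh* 19, *Tdrd1* 11, *Tdrd9* 8, *Tdrd12* 5 and *Tdrd7* 3, against a median of 6 over all windows. Of the 4 with the most CpG, *Stk31* and *Tdrkh* were called lower and *Tdrd5* and *Tdrd3* were not called.

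The 5 protein-coding genes whose centred log2 CPM lay nearest to the mean profile of the 10 members over the 6 libraries were *Pou2f1*, *Syt14*, *Wdyhv1*, *Anln* and *Spast*, at Euclidean distances of 0.0579 to 0.0821. *Pou2f1*, an octamer-binding transcription factor, stood at 157, 156 and 144 CPM in the control and 95.2, 108 and 117 CPM in the KO-labelled testes. All its KO-labelled values lay below its control values, which follows from the mean profile it was picked to match, itself apart between the groups. That mean profile averages members that fell and members that did not, so it matches no single member's values.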

How the data were processed

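Total RNA of whole P12 testes was sequenced from strand-selected libraries with targeted transcript depletion. The authors trimmed reads with cutadapt, aligned them with HISAT2 (GRCm38.p5) and deposited raw counts per gene from featureCounts 1.6.4 (1 strand, GENCODE M18 per the file header, 54232 genes) beside the exon length of each gene. All 6 library columns were used and 0 were left out. Of the gene identifiers, 54079 were named from GENCODE M21.

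From the counts, groups were compared with edgeR 4.0.16 (quasi-likelihood test, TMM scaling, filterByExpr, both groups, no covariate) in R 4.3.3, with Benjamini-Hochberg adjustment over 20327 genes and a threshold of 0.05. The study used DESeq2; edgeR was the main test here for raw counts, with DESeq2 1.42.0 and limma-voom 3.58.1 as alternatives, besides other scalings, filters, a replicate block and each library left out. The code was tested on simulated data. The standard error is the log2 fold change over the root of F. CPM carry the TMM factors. Ratios to *Ddx4* were tested by an exact permutation test (scipy 1.17.1). The replicate numbers did not pair the samples, and p-values measure the spread between these 6 libraries. No library was a copy (chi-square per degree of freedom at least 10.03 within groups).

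The members and gene lists were chosen with earlier results of these data known. Named were all members, *Dis3l2*, *Dis3*, *Ddx4*, *Dazl*, the 5 nearest profiles and, from each other list, up to 4 genes per direction with the smallest adjusted p. *Prmt5*, *Tnp2*, *Tex14* and the motifs were added after values were seen.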

Additional observations from a re-analysis of the deposited data

How the results depend on the processing

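The count of members called lower was 6 with DESeq2, limma-voom, RLE and upper-quartile factors, the replicate block, a minimum of 10 counts per library and no filter at all, and ran from 5 to 6 with a library left out; piRNA pathway partners called ran from 13 to 15 and all genes called from 4948 to 6669. Replicate numbers correlated at -0.0126 to 0.0139 in their deviations, so the replicate block, with 6561 genes called, has no pairing behind it and changed no member's call. Scaling decided more. Scaled to germ cell genes, 16131 genes were called, and the log2 fold changes turned to 1.28 for *Tdrd1*, 0.9999 for *Tdrd7*, 0.81 for *Tdrd9*, 0.17 for *Tdrkh* (adjusted p = 0.38, edgeR), 0.39 for *Rnf17* and 0.27 for *Stk31* (adjusted p = 0.14, edgeR), while *Tdrd12* stood at -0.03. Scaled to somatic cell markers, *Tdrd3* turned to -0.42, *Tdrd5* to -0.39 and *Tdrd6* to -0.23 (adjusted p = 0.659, edgeR). *Tdrd3* was at -0.013 with the minimum of 10 counts. The uncalled members changed sign with a library left out, within -0.16 to 0.078 for *Tdrd1*, -0.022 to 0.054 for *Tdrd3*, -0.093 to 0.13 for *Tdrd5* and -0.023 to 0.45 for *Tdrd6*; the cause was not tested. The ratio of *Tdrd12* to *Ddx4* differed by -0.17 to -0.02 and that of *Tdrkh* by 0.09 to 0.14 with a library left out, an alternative chosen after seeing the data. *Tdrd6* had the fewest counts, 30 to 59 per library, and the widest interval.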
